A study of Mus musculus with 12 samples.

Results

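The cholesterol and lipid synthesis genes are 37 mouse genes, chosen by symbol for their place in sterol and fatty acid metabolism. Earlier results of these data were known when this choice was made. The genes were the 6 enzymes of the mevalonate pathway listed here, 11 enzymes from squalene to cholesterol and 5 genes of SREBP regulation. The others were 2 of sterol transport, 10 of fatty acid synthesis and 3 targets of the liver X receptors (LXRs). All 37 were found by symbol among the 49671 genes of the count files, and 36 passed the filter on low counts that left 18668 genes. The exception was Abcg1, with 1 read in 1 of the 12 libraries.

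The RNA came from NIH 3T3, a fibroblast line first grown from mouse embryos, and was sequenced in 4 groups with 3 libraries each. All cells were transfected with siRNA, either a negative control or an siRNA against Lap2, and kept in low serum (0.3% FBS). Cells of both siRNAs were then harvested either starved, or after stimulation with 15% FBS for 45 min. The Lap2 siRNA was a single sequence against the products of Tmpo, which encodes the Lap2 proteins of the nuclear envelope and the nucleoplasm, so effects of losing Lap2 and other effects of that sequence cannot be told apart. Nothing in the labels says whether the 3 libraries of a group came from separate cultures, so p-values measure the spread between these libraries, which may be technical.

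Cells make cholesterol from acetyl-CoA by way of mevalonate and squalene. The pathway is controlled by feedback. When sterols in the endoplasmic reticulum are scarce, SCAP carries the membrane-bound SREBP precursors to the Golgi, where they are cut, and the released fragments activate genes of sterol and fatty acid synthesis. When sterols are plentiful, the INSIG proteins hold SCAP and the precursors back. LXRs are nuclear receptors that are activated by oxysterols and raise genes of cholesterol export. Serum carries cholesterol in lipoproteins, and low serum deprives cultured cells of it.

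The promoters of 4 members are shown because SREBPs work at promoters together with the factors NF-Y and Sp1, and Lap2 siRNA lowered all 4 of these genes in starved and in stimulated cells. Hmgcs1, Fasn and Mvd were also called higher after serum with control siRNA, and Nsdhl was not. They were picked after the words had been searched, among genes whose window lies outside the gene as annotated in GENCODE M21. Each is the 250 bases before the RefSeq start on the gene's own strand, 5′ to 3′ (GRCm38.p6). Capitals mark CCAAT, or ATTGG where it is on the other strand, and in Hmgcs1 also TCACNCCAC, a form of the sterol regulatory element. The windows are chr13:119690101-119690350 (plus strand) for Hmgcs1, chr8:122443423-122443672 (minus strand) for Mvd, chr11:120824548-120824797 (minus strand) for Fasn and chrX:72918271-72918520 (plus strand) for Nsdhl.
Hmgcs1: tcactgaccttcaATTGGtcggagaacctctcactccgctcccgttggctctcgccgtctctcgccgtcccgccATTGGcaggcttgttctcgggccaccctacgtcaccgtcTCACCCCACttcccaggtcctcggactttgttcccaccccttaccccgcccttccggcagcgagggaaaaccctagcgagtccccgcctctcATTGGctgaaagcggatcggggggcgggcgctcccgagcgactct
Mvd: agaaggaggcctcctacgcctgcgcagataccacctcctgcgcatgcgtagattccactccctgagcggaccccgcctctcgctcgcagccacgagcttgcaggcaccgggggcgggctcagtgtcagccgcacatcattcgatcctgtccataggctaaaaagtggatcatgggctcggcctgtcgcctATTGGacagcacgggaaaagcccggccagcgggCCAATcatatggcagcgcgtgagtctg
Fasn: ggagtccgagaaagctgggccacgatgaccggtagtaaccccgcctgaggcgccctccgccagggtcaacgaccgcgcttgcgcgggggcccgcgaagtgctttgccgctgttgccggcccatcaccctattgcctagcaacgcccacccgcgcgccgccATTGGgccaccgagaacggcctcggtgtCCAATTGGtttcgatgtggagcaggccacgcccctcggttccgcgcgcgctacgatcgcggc
Nsdhl: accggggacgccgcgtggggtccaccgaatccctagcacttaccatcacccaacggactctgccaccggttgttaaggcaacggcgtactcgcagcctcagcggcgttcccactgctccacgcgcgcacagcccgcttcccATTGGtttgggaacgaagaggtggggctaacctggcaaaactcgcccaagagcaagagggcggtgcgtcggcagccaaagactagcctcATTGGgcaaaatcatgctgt

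A RefSeq promoter was found for 28 of the 37 members. The word TCACNCCAC, searched on both strands, was in 1 of the 28 (Hmgcs1) and in 1.22% of the 27025 genes with a promoter. CCAAT was in 21 of the 28 and in 37.5% of all genes. The GC box GGGCGG, the word bound by Sp1, was in 23 of the 28 and in 35.4% of all genes. A gene had a word if any of its windows held it, with 36 windows for the 28 members and 32851 for all genes. All genes here means every gene with a promoter, whether or not it was expressed in these cells. A word could overlap another, as the pair of CCAAT words on opposite strands in Fasn did. These matches describe the letters of the windows and were not tested as binding sites.

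Counts of the label check genes followed the labels. Total counts were 18026298 to 26265253 per library. Tmpo was at 38.4% of its control level with Lap2 siRNA in 0.3% FBS and at 22.2% in 15% FBS, and the serum response genes rose with both siRNAs, Fos by a log2 fold change (log2FC) of 6.67 (control) and 6.63 (Lap2), and Egr1 by 5.32 and 4.93. The summed fibroblast markers, of which 8 of 8 were tested, lay at 801930 to 832780 normalized counts with control siRNA in 0.3% FBS and at 854490 to 939790 in 15% FBS. With Lap2 siRNA the sums lay lower, at 505060 to 610470 and at 610480 to 678850. Of the 8, Lap2 siRNA lowered 5 and raised 2 in 0.3% FBS, and lowered 6 in 15% FBS. Of all tested genes it lowered 18.6% and raised 17.8% in 0.3% FBS, and lowered 12.1% in 15% FBS. Adipocyte markers, of which 2 of 7 could be tested, summed in 0.3% FBS to 5.39 to 7.85 normalized counts with control and 18.5 to 22.9 with Lap2 siRNA, and in 15% FBS to 3.35 to 5.93 and 5.78 to 19.3. Of these 7, Pparg was called higher with Lap2 siRNA in 0.3% FBS (1.39, SE 0.53, adjusted p = 0.0382), Fabp4 was not called, and Plin1, Lep and Cfd were at 0 reads in every library. Macrophage markers summed to 57.2 to 60.4 with control and 63.4 to 83.2 with Lap2 siRNA in 0.3% FBS, and to 37.3 to 58.0 and 57.0 to 62.4 in 15% FBS. Of these 4, Csf1r was called higher with Lap2 siRNA in 0.3% FBS (1.46, adjusted p = 0.00852). Endothelial markers summed to 20.6 to 24.8 with control and 8.26 to 14.4 with Lap2 siRNA in 0.3% FBS, and to 24.5 to 34.6 and 11.7 to 20.3 in 15% FBS, where Tek was called lower (-1.52, adjusted p = 0.0404). Epithelial markers lay at 2.97 to 23.4 in all 12 libraries, and the 1 of 4 that could be tested was not called. The part of these marker differences in the results below was not tested. Bulk counts cannot tell fewer cells of a type from less RNA per cell.

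Lap2 siRNA lowered most of the lipid synthesis genes in both serum conditions. Calls rest on the quasi-likelihood test of edgeR, where a gene had to reach an adjusted p (Benjamini-Hochberg, over all 18668 genes) under 0.05. In 0.3% FBS, 31 of the 36 tested members were lower and 1 was higher, against 18.6% of all tested genes lower and 17.8% higher. In 15% FBS, 31 of 36 were lower and 0 higher, against 12.1% of all tested genes lower and 11.4% higher. The median log2FC of the members was -0.53 in 0.3% FBS and -0.75 in 15% FBS, where the medians of all tested genes were 0.01 and 0.02. These 2 comparisons share no library, but they share the siRNA sequence and the estimate of spread. Of the members, 29 were lower in both, and the share of all tested genes lower in both was not counted. Insig2 and Mylip were called lower in 0.3% FBS alone, Insig1 and Lpin1 in 15% FBS alone, and Npc1, Scap and Srebf1 were called lower in neither.

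**Figure D1:**
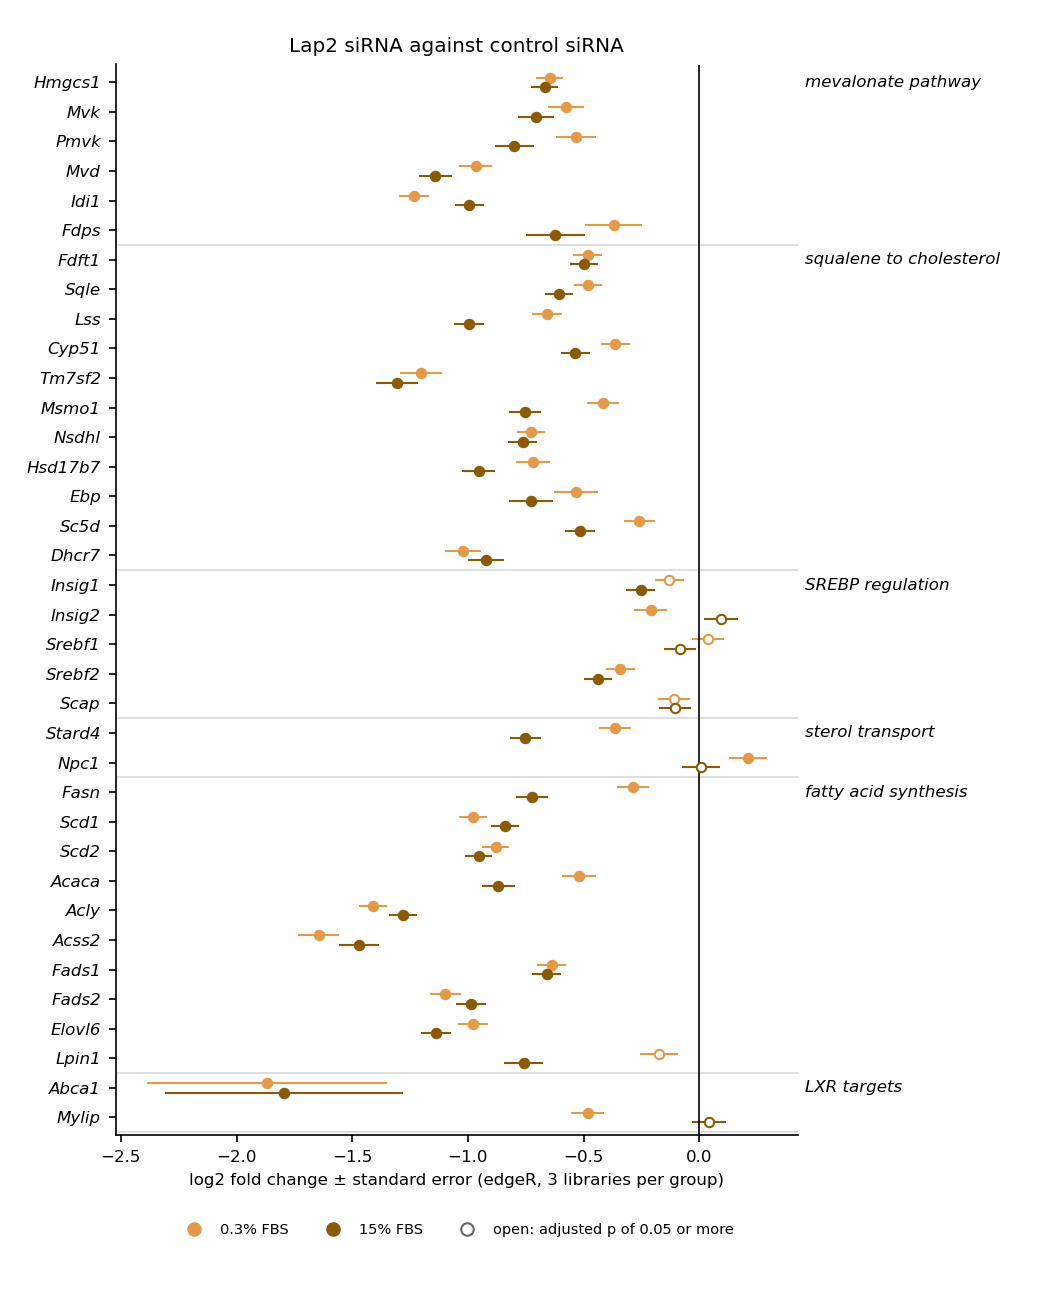
Log2FC of the 36 tested members with Lap2 siRNA against control siRNA, in 0.3% FBS (light) and 15% FBS (dark), with standard errors, grouped by role. Filled points have an adjusted p under 0.05 (edgeR, 3 libraries per group), and 31 members lie filled below 0 in each serum condition.

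The mevalonate pathway turns acetyl units into the isoprenoid building blocks of sterols. Lap2 siRNA lowered all 6 of its members in both serum conditions (median log2FC -0.61 and -0.75). Among all tested genes, 18.6% were lower in 0.3% FBS and 12.1% in 15% FBS. Idi1 (ENSMUSG00000058258, chromosome 13 from 8885501 to 8892451 on the plus strand), which interconverts the isoprenoid isomers, had 5490, 5843 and 5884 normalized counts in the 3 control libraries in 0.3% FBS and 2572, 2328 and 2426 with Lap2 siRNA. With 15% FBS the gene had 10623, 10409 and 10556 with control and 5142, 5022 and 5697 with Lap2 siRNA. All Lap2 siRNA libraries lay below all control libraries of the same serum condition, and the log2FC was -1.23 (SE 0.06) and -0.99 (SE 0.06), with adjusted p of 1.58e-16 and 5.88e-14. Mvd (ENSMUSG00000006517, chromosome 8 from 122433601 to 122443422 on the minus strand), which decarboxylates mevalonate diphosphate, had 2566, 2242 and 2221 normalized counts with control and 1247, 1186 and 1163 with Lap2 siRNA in 0.3% FBS. In stimulated cells it had 2788, 2551 and 2765 with control and 1214, 1169 and 1291 with Lap2 siRNA. Its groups did not overlap in either serum condition, and its log2FC was -0.97 (SE 0.07) and -1.14 (SE 0.07).

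The other 4 mevalonate enzymes had log2FC closer to 0. Hmgcs1, which makes HMG-CoA and whose promoter is shown above, had a log2FC of -0.65 (SE 0.06) in 0.3% FBS and -0.67 (SE 0.06) in 15% FBS. The kinases Mvk and Pmvk had -0.58 and -0.53 in 0.3% FBS, and -0.71 and -0.80 in 15% FBS. Fdps, which makes farnesyl diphosphate, had -0.37 (SE 0.12, adjusted p = 0.0176) in 0.3% FBS, where its groups overlapped. In 15% FBS it had -0.62 (SE 0.13). Fdps overlaps Gm22935 and Gm43738 on the same strand, which could affect its count. Its call in 0.3% FBS was lost when any 1 of 3 libraries was left out, with adjusted p of 0.0727 to 0.192, the latter without the first control library in 0.3% FBS, and with total counts (-0.26, adjusted p = 0.0977).

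The 11 enzymes from squalene to cholesterol were all lower in both serum conditions as well, with medians of -0.53 and -0.75. The shares of all tested genes lower were 18.6% in 0.3% FBS and 12.1% in 15% FBS. Tm7sf2 (ENSMUSG00000024799, chromosome 19 from 6062821 to 6068373 on the minus strand), a sterol reductase, was at 1822, 1415 and 1571 normalized counts with control siRNA and at 688, 687 and 714 with Lap2 siRNA in 0.3% FBS. After serum it was at 1304, 1385 and 1680 with control and at 556, 595 and 613 with Lap2 siRNA. The control libraries spread more than those with Lap2 siRNA, and the log2FC was -1.20 (SE 0.09) and -1.31 (SE 0.09). Tm7sf2 overlaps Vps51 on the same strand, which could affect its count. Dhcr7, which reduces 7-dehydrocholesterol to cholesterol, had -1.02 and -0.92. The 2 enzymes that open this branch had smaller differences, with -0.48 and -0.50 for the squalene synthase Fdft1 and -0.48 and -0.61 for the squalene epoxidase Sqle. Sc5d, a sterol desaturase, had the smallest difference of the 11 in 0.3% FBS, at -0.26 (SE 0.07, adjusted p = 0.00203), and -0.51 (SE 0.06) in 15% FBS. Its call in 0.3% FBS was lost with total counts (-0.15, adjusted p = 0.0746). The remaining 6 enzymes ran from -0.73 for Nsdhl to -0.36 for Cyp51 in 0.3% FBS, and from -0.995 for Lss to -0.54 for Cyp51 in 15% FBS.

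**Figure D2:**
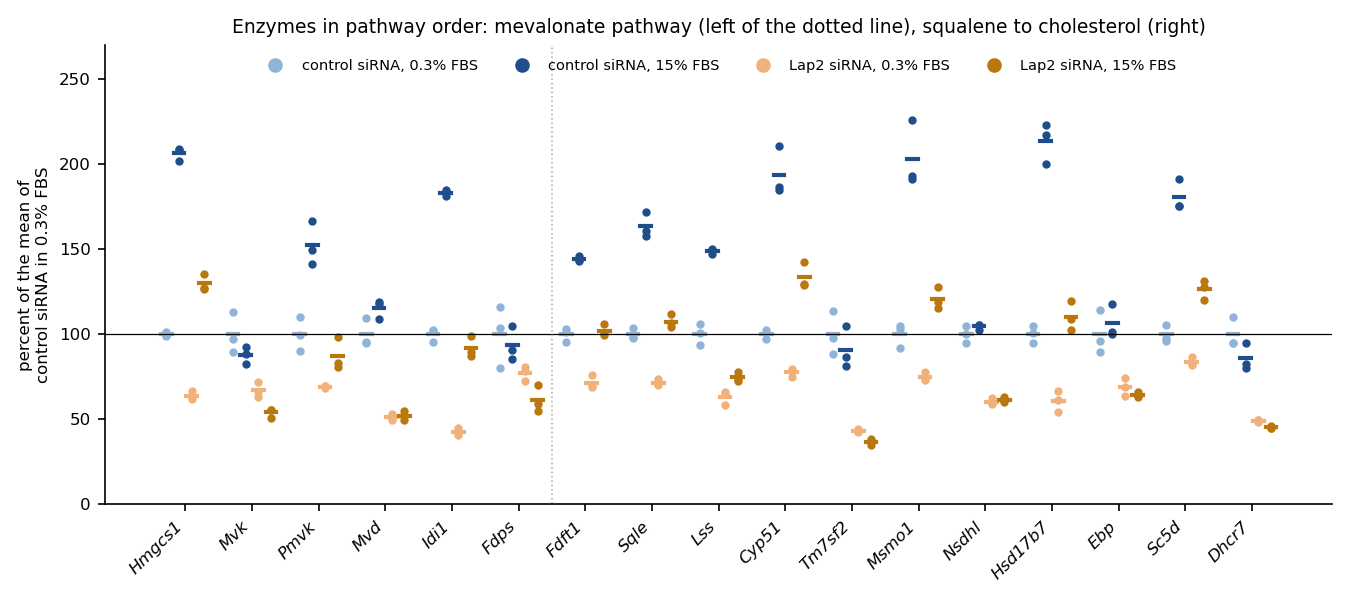
Normalized counts of the 17 sterol enzymes in pathway order, as a percentage of the mean with control siRNA in 0.3% FBS, with points for the libraries and bars for the means of the 4 groups. With Lap2 siRNA in 0.3% FBS the means lie below 100 for all 17 enzymes, and in 15% FBS they lie below the control means for all 17.

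The genes of SREBP regulation gave smaller differences. Of 5 tested, 2 were lower in each serum condition, against 18.6% of all tested genes in 0.3% FBS and 12.1% in 15% FBS. Srebf2 (ENSMUSG00000022463, chromosome 15 from 82147266 to 82205376 on the plus strand), the SREBP gene best known for sterol synthesis, had 13045, 12185 and 11800 normalized counts with control and 8915, 10337 and 9976 with Lap2 siRNA in 0.3% FBS. With 15% FBS the gene had 15480, 15926 and 16098 with control and 11652, 11722 and 11680 with Lap2 siRNA. The groups did not overlap, and the log2FC was -0.34 (SE 0.06, adjusted p = 3.28e-05) and -0.44 (SE 0.06, adjusted p = 1.45e-06). Its paralog Srebf1 (ENSMUSG00000020538, chromosome 11 from 60199089 to 60222581 on the minus strand), better known for fatty acid synthesis, had 2048, 1930 and 1852 with control and 1936, 2096 and 1952 with Lap2 siRNA in 0.3% FBS. In stimulated cells it had 1681, 1777 and 1907 with control and 1720, 1741 and 1603 with Lap2 siRNA. Here the groups overlapped in both serum conditions, with a log2FC of 0.04 (95% interval -0.12 to 0.19) and -0.08 (95% interval -0.24 to 0.08). Scap, the escort protein, was not called either, at -0.11 (95% interval -0.27 to 0.05) in 0.3% FBS and -0.11 (95% interval -0.27 to 0.06) in 15% FBS.

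The INSIG genes, which retain SREBPs in the endoplasmic reticulum, were called in different serum conditions. Insig1 (ENSMUSG00000045294, chromosome 5 from 28071363 to 28078662 on the plus strand), itself a target of SREBPs, was at 4977, 4894 and 5162 normalized counts with control and 4454, 4640 and 4645 with Lap2 siRNA in 0.3% FBS. After serum it was at 13174, 13007 and 14029 with control and 10842, 10596 and 12291 with Lap2 siRNA. The groups did not overlap in either condition, but the log2FC passed the test in 15% FBS alone, at -0.25 (SE 0.06, adjusted p = 0.00242) against -0.13 (SE 0.06, adjusted p = 0.112) in 0.3% FBS. The difference between these 2 values was tested as the interaction and was not called (-0.12, adjusted p = 0.426). Insig2 (ENSMUSG00000003721, chromosome 1 from 121304353 to 121332589 on the minus strand) was at 1103, 1242 and 1233 with control and 1099, 970 and 1022 with Lap2 siRNA in 0.3% FBS. With 15% FBS the gene was at 1214, 1215 and 1325 with control and 1386, 1314 and 1303 with Lap2 siRNA. Its log2FC was -0.21 (SE 0.07, adjusted p = 0.0219) in 0.3% FBS, where the nearest libraries of the groups were almost level, and 0.09 (SE 0.07, adjusted p = 0.414) in 15% FBS, where they overlapped. The call in 0.3% FBS was lost when any 1 of 4 libraries was left out, with adjusted p of 0.0731 to 0.157, and with total counts (-0.10, adjusted p = 0.295).

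Of the 2 sterol transport genes, Stard4, a soluble carrier of cholesterol, was lower in both serum conditions. It had 2629, 2618 and 2691 normalized counts with control and 1843, 2107 and 2221 with Lap2 siRNA in 0.3% FBS. In stimulated cells it had 6233, 6308 and 6029 with control and 3597, 3489 and 3938 with Lap2 siRNA. Groups did not overlap, and the log2FC was -0.36 (SE 0.07) and -0.75 (SE 0.07). Npc1, which moves cholesterol out of lysosomes, was the 1 member called higher, at 0.21 (SE 0.08, adjusted p = 0.0434) in 0.3% FBS, with overlapping groups. This call was lost without any 1 of several libraries, for example at an adjusted p of 0.196 without the second Lap2 siRNA library in 0.3% FBS, and in 15% FBS the log2FC was 0.01 (95% interval -0.18 to 0.20).

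Fatty acid synthesis held the members with the largest differences among well-counted genes. Of 10 tested, 9 were lower in 0.3% FBS and 10 in 15% FBS, with medians of -0.93 and -0.91. This compares with 18.6% and 12.1% of all tested genes lower. Acss2 (ENSMUSG00000027605, chromosome 2 from 155517948 to 155585724 on the plus strand), which makes acetyl-CoA from acetate, had 1139, 982 and 1065 normalized counts with control and 377, 305 and 334 with Lap2 siRNA in 0.3% FBS. After serum it had 1113, 1032 and 1027 with control and 385, 393 and 366 with Lap2 siRNA. Its level with Lap2 siRNA was 31.9% and 36.1% of control, with a log2FC of -1.65 (SE 0.09, adjusted p = 2.6e-16) and -1.47 (SE 0.09, adjusted p = 1.44e-14). Acss2 overlaps Ggt7, Gss and Acss2os on the opposite strand, and whether counting used the strand is not given in the sources used here. The same holds for Fdft1 (with Ctsb), Cyp51 (with Akap9), Srebf1 (with Rai1), Npc1 (with Rmc1 and Gm15956), Idi1 (with Gm48574), Hmgcs1 (with Gm48342), Lss (with 4930483K19Rik), Scap (with 5830462I19Rik) and Elovl6 (with Gm35986).

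Acly (ENSMUSG00000020917, chromosome 11 from 100476353 to 100528000 on the minus strand), which makes acetyl-CoA from citrate, had 19529, 17924 and 17918 normalized counts with control and 6672, 7210 and 6966 with Lap2 siRNA in 0.3% FBS. With 15% FBS the gene had 18845, 19106 and 18278 with control and 8009, 7748 and 7373 with Lap2 siRNA. Its groups stood far apart, and its log2FC was -1.41 (SE 0.06, adjusted p = 2.31e-18) and -1.28 (SE 0.06, adjusted p = 1.11e-16). Both enzymes supply acetyl-CoA for sterol and fatty acid synthesis.

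The stearoyl-CoA desaturases, which put the first double bond into fatty acids, were lower together. Scd1 (ENSMUSG00000037071, chromosome 19 from 44394451 to 44407709 on the minus strand) had 6878, 7242 and 6941 normalized counts with control and 3316, 3663 and 3704 with Lap2 siRNA in 0.3% FBS. In stimulated cells it had 7572, 7415 and 7711 with control and 4347, 4224 and 4101 with Lap2 siRNA. Its log2FC was -0.98 (SE 0.06) and -0.84 (SE 0.06). Scd2 (ENSMUSG00000025203, chromosome 19 from 44293676 to 44306864 on the plus strand) had 42974, 42724 and 42134 with control and 21194, 24092 and 24170 with Lap2 siRNA in 0.3% FBS. After serum it had 41251, 41627 and 43722 with control and 22024, 21906 and 21429 with Lap2 siRNA. Its log2FC was -0.88 (SE 0.06) and -0.95 (SE 0.06). The groups of both genes did not overlap. Whether similar sequence let reads of one be counted for the other was not tested. Per kilobase of exon, Scd2 had the highest level of all members with control siRNA in 0.3% FBS, at 7798 ± 79.0 normalized counts per kb (SD, n = 3), followed by Acly at 3496 ± 176 and Hmgcs1 at 2837 ± 30.02.

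The remaining fatty acid genes were lower too, with Fads2 at -1.10 and -0.99 and Elovl6 at -0.98 and -1.14. Acaca, the acetyl-CoA carboxylase, was at -0.52 and -0.87, Fads1 at -0.64 and -0.66, and Fasn, the fatty acid synthase, at -0.28 and -0.72. Lpin1, a phosphatidate phosphatase, was not called in 0.3% FBS (-0.17, 95% interval -0.36 to 0.01) and was lower in 15% FBS (-0.76, SE 0.08). Both tested LXR targets were lower in 0.3% FBS, against 18.6% of all tested genes. Abca1 (ENSMUSG00000015243, chromosome 4 from 53030787 to 53159895 on the minus strand), the cholesterol exporter, was counted thinly, at 18.6, 18.2 and 34.5 normalized counts with control and 0.918, 12.5 and 6.18 with Lap2 siRNA in 0.3% FBS. With 15% FBS the gene was at 15.1, 31.7 and 27.9 with control and 8.09, 4.24 and 8.70 with Lap2 siRNA. Its groups did not overlap, and its log2FC of -1.87 (SE 0.52, adjusted p = 0.00435) and -1.80 (SE 0.52, adjusted p = 0.00915) had the widest errors of the members. The call in 15% FBS was lost without the second control library (log2FC -1.58, adjusted p = 0.0577) or the second Lap2 siRNA library there (log2FC -1.54, adjusted p = 0.0582). Mylip, a ubiquitin ligase that targets lipoprotein receptors for degradation, had a log2FC of -0.48 (SE 0.07) in 0.3% FBS and 0.04 (95% interval -0.12 to 0.21) in 15% FBS.

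**Figure D3:**
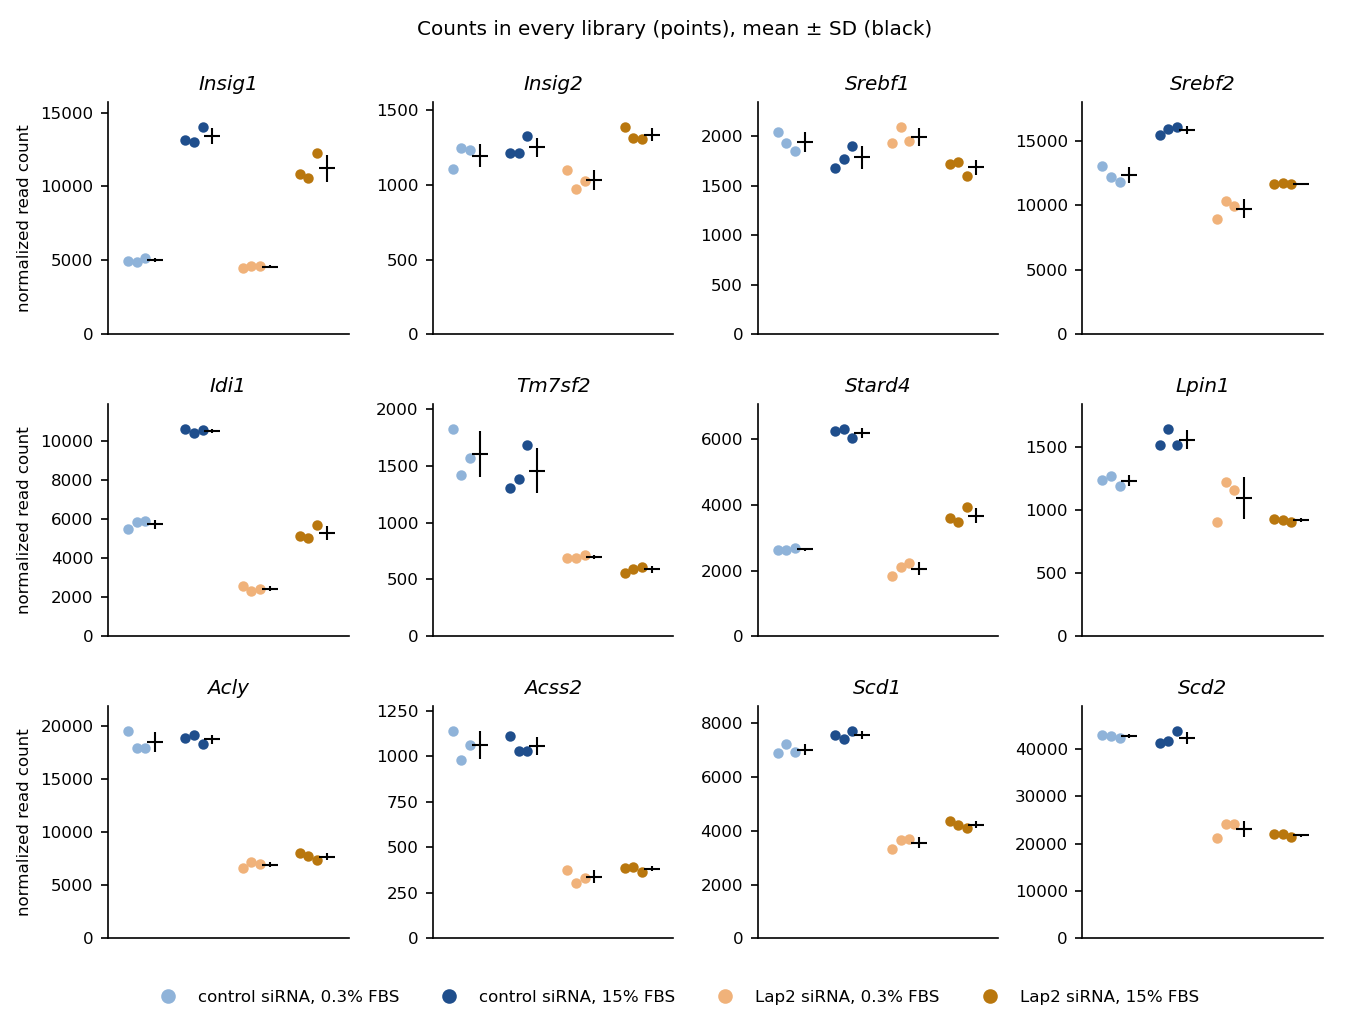
Normalized read counts of 12 members in each of the 12 libraries (points), with the mean ± SD of each group (black, n = 3), on axes that start at 0. Idi1, Tm7sf2, Acly, Acss2, Scd1 and Scd2 lie lower with Lap2 siRNA at both serum levels, whereas the groups of Srebf1 overlap.

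Serum for 45 min raised Insig1, Stard4 and many of the sterol enzymes. With control siRNA, 17 of the 36 tested members were higher and 2 lower, against 15.6% of all tested genes higher and 13.9% lower. With Lap2 siRNA, 19 were higher and 6 lower, against 18.3% higher and 14.9% lower. The members had median log2FC of 0.15 and 0.18, and that of all tested genes -0.01 and 0.00. This split depended on the scaling, which for serum moved the median of all tested genes by -0.21 and -0.23 when total counts replaced TMM. With total counts, 14 members were higher and 9 lower with control siRNA, and 10 higher and 14 lower with Lap2 siRNA. With upper-quartile scaling the splits were 15 higher and 5 lower, and 12 higher and 8 lower. With TMM, 15 members were higher with both siRNAs, and the share of all tested genes higher with both was not counted. These 2 serum comparisons share no library, but they share the estimate of spread. Lower members were Dhcr7 (-0.22) and Mylip (-0.27) with control siRNA, and Fdps (-0.34), Mvk (-0.31), Acaca (-0.28), Lpin1 (-0.25), Tm7sf2 (-0.24) and Srebf1 (-0.24) with Lap2 siRNA. Some of these calls were lost when 1 library was left out. That of Dhcr7 was lost without any 1 of 3 libraries (adjusted p of 0.0994 to 0.218), those of Fdps and Lpin1 without any 1 of 4 (0.0505 to 0.166) and any 1 of 3 (0.0503 to 0.14), and that of Tm7sf2 without any 1 of 5 (0.0527 to 0.167). Mvk, at -0.18 with control siRNA (adjusted p = 0.0706), was called lower there too with total counts (-0.39) and with upper-quartile scaling (-0.28). So were Srebf1 (-0.33 and -0.22) and Tm7sf2 (-0.35 and -0.23).

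**Figure D4:**
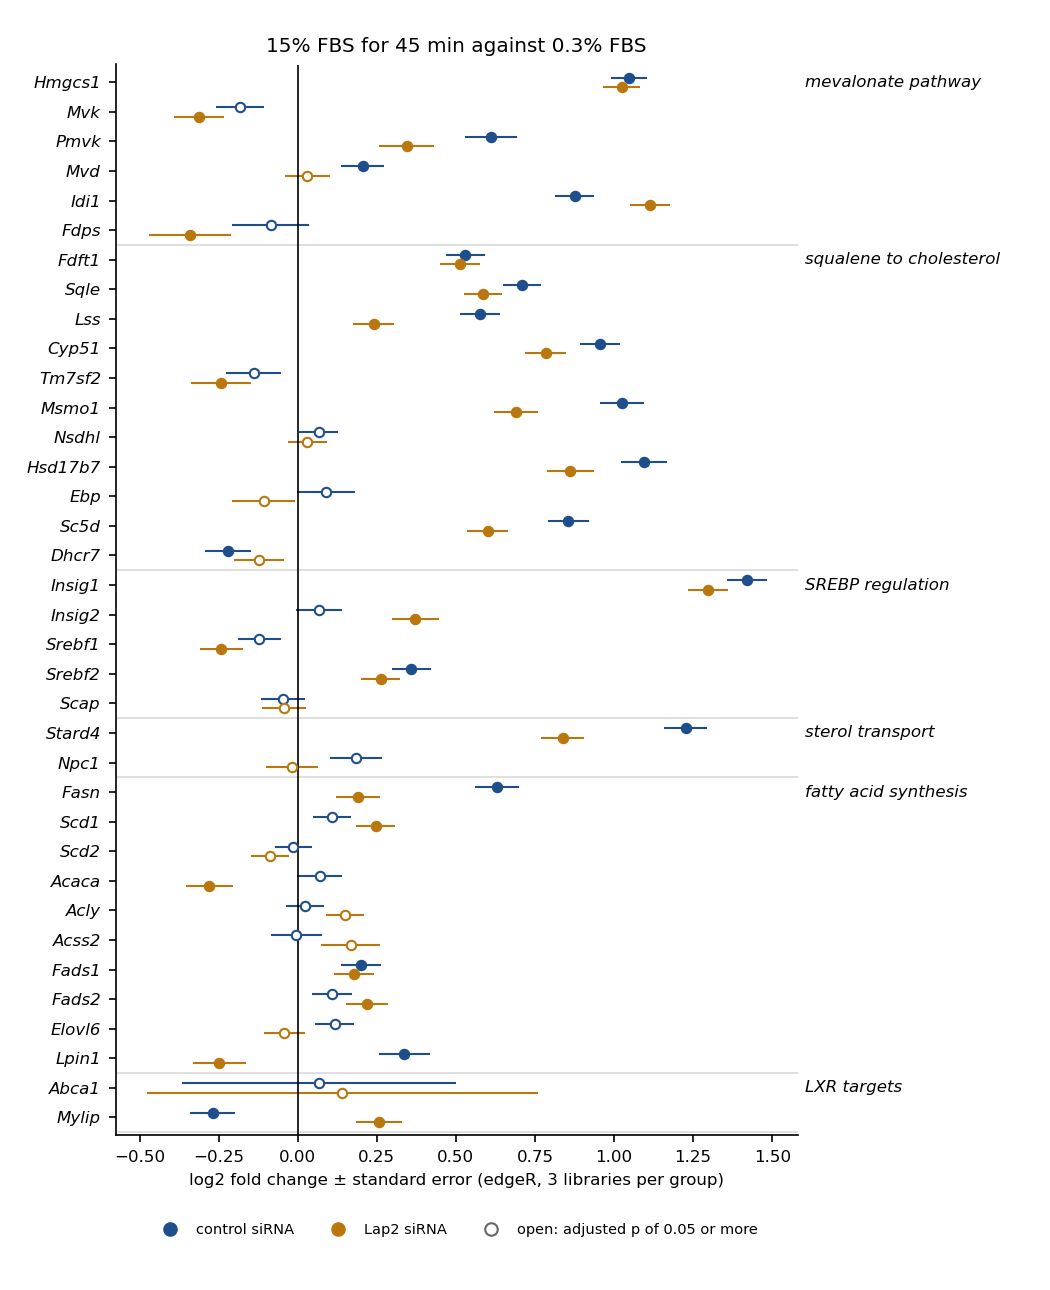
Log2FC of the 36 tested members after 15% FBS for 45 min, with control siRNA (blue) and Lap2 siRNA (brown), with standard errors, grouped by role. Filled points have an adjusted p under 0.05 (edgeR, 3 libraries per group), and Insig1 lies farthest to the right with both siRNAs.

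Insig1 had the largest serum response of the members, with a log2FC of 1.42 (SE 0.06, adjusted p = 7.36e-19) with control siRNA and 1.30 (SE 0.06, adjusted p = 1.17e-17) with Lap2 siRNA. Stard4 had 1.23 (SE 0.07) and 0.84 (SE 0.07). Idi1 had 0.88 (SE 0.06) and 1.11 (SE 0.06), and Hmgcs1 1.05 (SE 0.06) and 1.02 (SE 0.06). Srebf2 rose by 0.36 (SE 0.06) and 0.26 (SE 0.06), and its second call was lost with total counts (0.03, adjusted p = 0.729). Srebf1 had -0.12 (95% interval -0.28 to 0.04) with control siRNA and fell with Lap2 siRNA (-0.24, SE 0.07). With total counts and with upper-quartile scaling it was called lower with control siRNA too (-0.33 and -0.22), and its interaction was not called.

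With control siRNA, serum raised 4 of 6 mevalonate enzymes and 7 of 11 from squalene on, against 15.6% of all tested genes. With Lap2 siRNA it raised 3 of 6 and 7 of 11, against 18.3%. From squalene on, the 7 with a higher count with control siRNA were Fdft1 (0.53), Lss (0.58), Sqle (0.71), Sc5d (0.85), Cyp51 (0.96), Msmo1 (1.02) and Hsd17b7 (1.10). The same 7 enzymes were higher with Lap2 siRNA, at 0.51 for Fdft1, 0.24 for Lss, 0.59 for Sqle, 0.60 for Sc5d, 0.78 for Cyp51, 0.69 for Msmo1 and 0.86 for Hsd17b7, although the Lss call with Lap2 siRNA was lost with total counts and with upper-quartile scaling. The call of Mvd with control siRNA (0.21, adjusted p = 0.0205) was lost without any 1 of 4 libraries, with adjusted p of 0.0667 to 0.096, and its value was -0.0022 with total counts. Nsdhl and Ebp, enzymes of the branch from squalene, were not called for serum with either siRNA, nor were Tm7sf2 and Dhcr7 called higher. In fatty acid synthesis, Fasn rose by 0.63 (SE 0.07) with control siRNA and 0.19 (SE 0.07, adjusted p = 0.0336) with Lap2 siRNA. The second value turned to -0.042 with total counts, and its call was lost without any 1 of 7 libraries, with adjusted p of 0.0581 to 0.234. Acly and Acss2 were not called for serum, at 0.02 (95% interval -0.12 to 0.16) and -0.0049 (95% interval -0.19 to 0.18) with control siRNA and at 0.15 (95% interval 0.01 to 0.29) and 0.17 (95% interval -0.05 to 0.38) with Lap2 siRNA. With total counts Acly was called lower with control siRNA (-0.19). For serum with Lap2 siRNA, Acly was called higher in some settings, for example by DESeq2 (0.13, adjusted p = 0.0408). Acss2 was called higher with Lap2 siRNA without the first Lap2 siRNA library in 0.3% FBS (0.24, adjusted p = 0.0482).

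The serum response itself differed between the siRNAs for 8 of the 36 members, by the interaction term. It was lower with Lap2 siRNA for 6, against 6.51% of all tested genes, and higher for 2, against 7.09%. The 6 were Lpin1 (-0.59, SE 0.12), Fasn (-0.44, SE 0.10), Stard4 (-0.39, SE 0.09), Acaca (-0.35, SE 0.10), Lss (-0.34, SE 0.09) and Msmo1 (-0.34, SE 0.10). The 2 were Mylip (0.52, SE 0.10) and Insig2 (0.30, SE 0.10, adjusted p = 0.0441). The loss of Tmpo RNA was not equal in the 2 serum conditions, at 38.4% of control in 0.3% FBS and 22.2% in 15% FBS. The part of this in the interaction values was not tested. Lpin1 and Mylip were chosen after their values were seen to be given by library. Lpin1 had 1236, 1268 and 1187 normalized counts in 0.3% FBS and 1512, 1639 and 1511 in 15% FBS with control siRNA. With Lap2 siRNA it had 903, 1218 and 1155 in 0.3% FBS and 931, 923 and 900 in 15% FBS. Serum gave a log2FC of 0.34 (adjusted p = 0.0013) with control siRNA and of -0.25 (adjusted p = 0.02) with Lap2 siRNA. The first call was lost with total counts (0.13, adjusted p = 0.22), and the second without the second Lap2 siRNA library in 0.3% FBS (-0.18, adjusted p = 0.14), the third there (adjusted p = 0.0633) or the second in 15% FBS (adjusted p = 0.0503). Mylip had 1035, 1021 and 998 in 0.3% FBS and 831, 813 and 894 in 15% FBS with control siRNA. With Lap2 siRNA it had 742, 724 and 720 in 0.3% FBS and 855, 861 and 896 in 15% FBS. Serum moved it by -0.27 with control siRNA but by 0.26 with Lap2 siRNA, although the second call was lost with total counts (0.03, adjusted p = 0.813) and with upper-quartile scaling (0.15, adjusted p = 0.128). The first Lap2 siRNA library in 0.3% FBS was the lowest of its group for Lpin1, Fasn, Acaca, Stard4 and Lss, and the highest for Msmo1. Some members without an interaction call, such as Srebf2, Scd2 and Elovl6, were lowest there too, and others, such as Idi1 and Fdft1, were highest. Without this library, 14 members were called in place of 8, with 11 lower and 3 higher. Calls among all tested genes rose too, from 6.51% to 10.7% lower and from 7.09% to 8.44% higher. The call of Acaca was lost without the second control library in 15% FBS (adjusted p = 0.0546), that of Msmo1 without the third control library there (adjusted p = 0.0901) or the second Lap2 siRNA library there (adjusted p = 0.0652), and that of Insig2 without most single libraries (adjusted p of up to 0.189).

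Another 28 genes of the same pathways, listed for their roles, passed the filter, 28 of 28. With Lap2 siRNA 12 were lower and 9 higher in 0.3% FBS, against 18.6% and 17.8% of all tested genes, and 12 lower and 5 higher in 15% FBS, against 12.1% and 11.4%. The medians of the 28 were -0.10 and -0.08. With total counts, a setting added for these genes after the data were seen, the splits were 9 lower and 10 higher in 0.3% FBS. In 15% FBS they were 10 lower and 8 higher. Of all tested genes, 14.1% were then lower and 25.1% higher in 0.3% FBS, and 8.99% and 18.6% in 15% FBS. Acat2, which makes acetoacetyl-CoA for the mevalonate pathway, was lower in both, at -0.68 and -0.89. The fatty acid genes Acsl3 (-0.63 and -0.93), Elovl5 (-0.52 and -0.91) and Fads3 (-0.89 and -0.49) were lower in both too. Of the 7 genes of SREBP cleavage and turnover, 0 were lower and 4 higher in 0.3% FBS, and 0 lower and 3 higher in 15% FBS, where 17.8% and 11.4% of all tested genes were higher. Rnf139, an E3 ligase of the endoplasmic reticulum, was called with Lap2 siRNA in neither serum condition, and rose after serum, by 0.29 with control and 0.45 with Lap2 siRNA, the first call being lost with total counts (0.08, adjusted p = 0.392). Soat1, which esterifies cholesterol, was at 0.53 in 0.3% FBS and at -0.25 in 15% FBS with Lap2 siRNA, and it rose after serum by 1.09 with control siRNA and 0.31 with Lap2 siRNA. With total counts its calls in 15% FBS (-0.17, adjusted p = 0.0629) and for serum with Lap2 siRNA (0.07, adjusted p = 0.406) were lost. The LXR target Arl4c was higher with Lap2 siRNA in 0.3% FBS (1.44, SE 0.09) and not called in 15% FBS (-0.08, SE 0.07). For serum, 9 of the 28 were higher and 1 lower with control siRNA, against 15.6% and 13.9% of all tested genes, and 11 higher and 1 lower with Lap2 siRNA, against 18.3% and 14.9%. These splits turned with total counts, to 3 higher and 10 lower with control siRNA and 3 higher and 12 lower with Lap2 siRNA, and were 7 higher and 4 lower with each siRNA with upper-quartile scaling. Of all tested genes, total counts gave 8.74% higher and 31.3% lower in control cells, and 8.88% and 31.9% in Lap2 siRNA cells. Upper-quartile scaling gave 11.7% higher and 20.8% lower in control cells, and 12.8% and 21.1% in Lap2 siRNA cells.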

How the data were processed

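RNA-seq covered 12 libraries in 4 groups of 3. The authors aligned reads with TopHat2 to mm10 (GRCm38), counted them per gene with HTSeq and deposited raw read counts without normalization. Tool versions and strand use in counting are not given in the sources used here. Library kits were directional, with ribosomal RNA removed.

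From the deposited counts, edgeR 4.0.16 in R 4.3.3 fitted 4 group means (TMM, glmQLFit, glmQLFTest) to 18668 genes, those counted above 1 in 3 or more libraries. The 5 contrasts were the serum response (each siRNA), the Lap2 siRNA effect (each serum level) and their interaction, with Benjamini-Hochberg adjustment and a threshold of 0.05. Standard errors were the absolute log2FC over the square root of F, and 95% intervals used 8 residual degrees of freedom. Normalized counts are counts over TMM-scaled library sizes, brought to the mean of these sizes. Starts are 1-based. The steps were tested on simulated counts. Depth of 18026298 to 26265253 counts per library gave members other than Abca1 a median standard error of 0.07.

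Named genes were all 37 members, library values for the 8 members with the largest absolute log2FC among those called and for the pairs Insig1/Insig2, Srebf1/Srebf2 and Scd1/Scd2, and, of the other pathway genes, the 3 with the largest log2FC among those called in each contrast. Tmpo, Fos and Egr1 checked labels. Members, lists and tests were chosen with earlier results of these data known. The 3 promoter words were also chosen with those results known. Promoters were 250 bases before the RefSeq start (GRCm38.p6). Alternatives were total-count and upper-quartile scaling, DESeq2 1.42.0, 3 other filters, a fit to the compared groups alone, a block for replicate number, and leaving out each library. The 2 scalings were added for the other pathway genes after the data were seen.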

Additional observations from a re-analysis of the deposited data

Results flagged for a closer look

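The serum response differed between Lap2 siRNA and control siRNA, by edgeR's interaction term at an adjusted p under 0.05, for 8 members and 6 of the other 28 pathway genes. Values are the log2FC after serum with Lap2 siRNA minus that with control siRNA. Groups of 3 libraries were not tested for libraries far from the others. The unequal Tmpo levels with Lap2 siRNA, 38.4% of control in 0.3% FBS and 22.2% in 15% FBS, were not taken into account.

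For the members the difference was -0.59 for Lpin1, -0.44 for Fasn, -0.39 for Stard4, -0.35 for Acaca, -0.34 for Lss and -0.34 for Msmo1, and it was 0.52 for Mylip and 0.30 for Insig2. Among the other pathway genes it was -1.52 for Arl4c, -0.78 for Soat1, -0.39 for Elovl5, -0.35 for Hsd17b12, -0.30 for Acsl3 and 0.40 for Fads3. Arl4c rose after serum with both siRNAs, by 3.80 with control siRNA and 2.28 with Lap2 siRNA. Hsd17b12, an enzyme of fatty acid elongation, had 0.29 with control siRNA (0.08 with total counts, adjusted p = 0.366) and -0.07 with Lap2 siRNA (-0.30 with total counts, adjusted p = 0.000427), and was named after its values were seen.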

How the results depend on the processing

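With Lap2 siRNA, 29 to 32 members were called in 0.3% FBS and 30 or 31 in 15% FBS as each library was left out. Over the other settings 29 to 32 and 30 or 31 were called. For serum, leaving out libraries gave 17 to 23 members with control siRNA and 19 to 26 with Lap2 siRNA. For the interaction it gave 6 to 14, where 14 came without the first Lap2 siRNA library in 0.3% FBS. That fit also raised the interaction calls among all tested genes, to 8.44% higher and 10.7% lower. The cause was not tested. Insig2's interaction call was lost under most settings. The interaction has no fit of fewer groups.

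Libraries were given replicate numbers by their order in the titles. For each library, deviations of log counts from the group means were taken. Between same-numbered libraries of compared groups, these deviations had correlations of -0.034 to 0.043. This order showed no pairing, and whether the experiment paired libraries is not given. With the replicate block, 20 and 25 members were called for serum with control and Lap2 siRNA, 32 and 31 for Lap2 siRNA in 0.3% and 15% FBS, and 7 for the interaction.

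Total counts turned the direction of 8 serum values. With control siRNA, Mvd was at -0.0022, Fads1 at -0.0069 and Acly at -0.19 (called lower). With Lap2 siRNA, Mvd was at -0.20 and Nsdhl at -0.20 (both called lower), Fads1 at -0.052, Fads2 at -0.012 and Fasn at -0.042. Total counts moved the median of all genes by 0.11 for Lap2 siRNA in 0.3% FBS, where 28 members and 14.1% of all tested genes were lower. Values called under neither setting were not counted as turned, and 81 of the 3559 member values compared changed sign in that way. At this depth Abcg1 was not tested and Abca1 was counted thinly.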
